A study of Trichoderma reesei with 6 samples.

Results

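A set of 70 gene models of the filamentous fungus Trichoderma reesei was nearly silent in hyphae fermenting glucose and clearly expressed in hyphae fermenting xylose. The models were chosen on their levels: each lay under 1 FPKM (fragments per kilobase of model, scaled to the library total) in every glucose library and at 10 FPKM or more in every xylose library. Models on scaffolds 7, 29 and 33 were left out, which removed 2 of the 72 that met both limits, among 9129 models in the table. With the sugars exchanged, the same limits were met by 0 models. Both counts use FPKM as deposited, where levels as a whole lie higher on xylose. With another scaling, described below, 14 models met the limits, and the exchanged count was not taken there. Because the glucose and xylose levels chose the 70 models, the size of their difference is given here as a description and not as a test result.

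RNA was sequenced from strain HJ48, which the series title calls recombinant, at an age of 4 days. There were 3 libraries from anaerobic fermentation of glucose and 3 from anaerobic fermentation of xylose, all from hyphae. The labels do not say whether the 3 libraries of a sugar came from separate cultures, so the spread between them may be technical. All samples carry 1 strain label and 1 age, and no culture without sugar or with both sugars was analysed here. Release from glucose and exposure to xylose therefore cannot be told apart in this contrast.

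T. reesei is an industrial producer of cellulases and hemicellulases. As background, many of its genes for the use of other carbon sources are repressed while glucose is present, in part through the repressor CRE1, and the activator XYR1 turns on xylanase, cellulase and xylose-use genes. Xylose is known to be reduced to xylitol, oxidised to xylulose and phosphorylated before it enters the pentose phosphate pathway. None of the 9129 model names matched an identifier among 9116 genes of the reference table for strain QM6a, so no model could be tied to CRE1, XYR1, an enzyme or any other product. The models are described below by level, reads, implied length, spread, name and scaffold, and no function is given to any of them.

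Library totals, worked out from the spacing of low FPKM values, were 8887469 to 10102493 reads in glucose and 10739898 to 11449774 in xylose, with no overlap in depth between the sugars. Levels in the table also shifted as a whole. Over the 7766 models that averaged 1 FPKM or more, the median log2 fold change of xylose over glucose was 1.10 on the log2(FPKM + 1) scale, and 0.10 after scaling by the median of ratios, which divides each library by its median ratio to the average library. With FPKM as deposited 64.8% of tested models were called higher on xylose and 14.1% lower by limma (Benjamini-Hochberg adjusted p under 0.05). With the median of ratios these shares were 38.4% and 35%. All 70 models passed the first test as higher, and all 70 also passed with the median of ratios. Every xylose library lay above every glucose library in the 70, which the limits force, and in 66.2% of the tested models. Both counts follow from the choice of models and carry no weight of their own.

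Most models that were near silent on glucose fell short of the xylose limit. Outside the 3 scaffolds left out, 2209 models lay under 1 FPKM in every glucose library. Of these, 822 (37.2%) also lay under 1 FPKM in every xylose library, and 116 of those were listed at 0 in all 6 libraries. A further 347 (15.7%) had their lowest xylose value under 1 FPKM and another at 1 or more. The lowest xylose value was from 1 to under 5 FPKM in 801 models (36.3%), from 5 to under 10 in 169 (7.65%) and at least 10 in the 70 (3.17%). Over all 2209 models the mean level as deposited had a median of 0.194 FPKM on glucose and 1.41 on xylose, so higher levels were not confined to the 70. The 70 were thus the upper end of a graded distribution and no gap parted them from the rest.

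**Figure D1:**
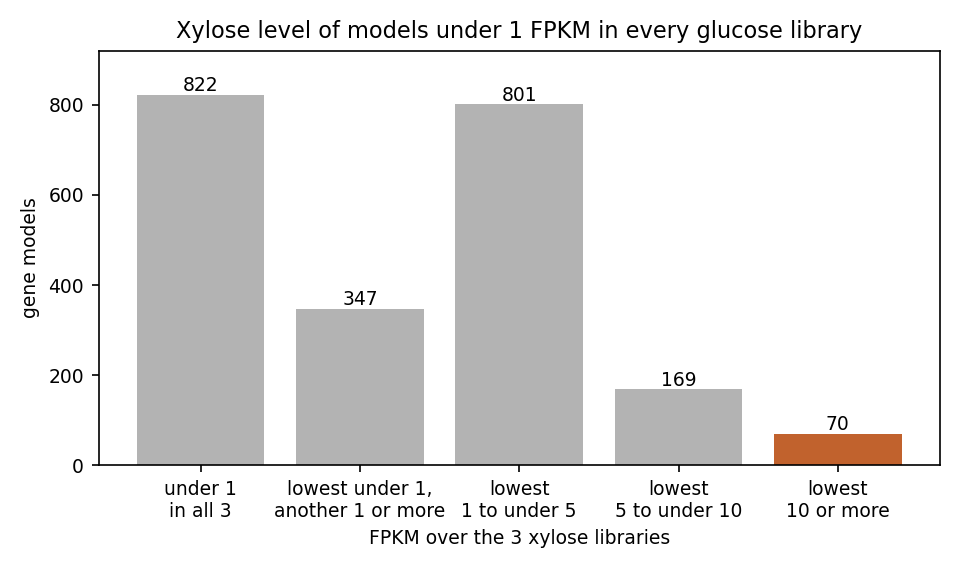
Number of gene models under 1 FPKM in every glucose library, outside scaffolds 7, 29 and 33, by their level over the 3 xylose libraries. The counts are 822, 347, 801, 169 and 70 from left to right, and the 70 models described here are the last bar.

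Models on either side of the limits differed little. The 3 models nearest inside the glucose limit, e_gw1.5.715.1, estExt_Genewise1.C_90264 and estExt_Genewise1.C_130360, had highest glucose values of 0.99985, 0.987 and 0.985 FPKM. The 3 nearest outside, estExt_GeneWisePlus.C_10213, e_gw1.2.135.1 and estExt_fgenesh5_pg.C_100236, had 1.01, 1.02 and 1.03 FPKM. On the xylose side, e_gw1.22.28.1, estExt_fgenesh5_pg.C_110052 and e_gw1.17.354.1 had lowest values of 10.004, 10.14 and 10.23 FPKM. Just outside, fgenesh5_pg.C_scaffold_1000780, e_gw1.22.94.1 and estExt_fgenesh5_pg.C_110072 had 9.98, 9.92 and 9.84 FPKM. The first of these, fgenesh5_pg.C_scaffold_1000780, was missed by the value of xylose replicate 1 alone, since it had 15.2 FPKM in replicate 2 and 23.1 in replicate 3.

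Glucose levels of the 70 models were low but mostly not absent. Their mean over the 3 glucose libraries ran from 0.0780 to 0.8499 FPKM with a median of 0.453. Reads were present in every glucose library for 57 of the 70 models (81.4%), against 1135 of the 2139 other models under 1 FPKM on glucose (53.1%). In 11 models 1 glucose library was listed at 0, in 2 models 2 were, and in no model were all 3. The word silent therefore describes the limit of 1 FPKM and not a lack of transcript.

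The glucose side rests on few reads. Over the 3 glucose libraries together the models had 1 to 116 reads each, with a median of 17. There were 6 models with 1 to 3 reads, 17 with 4 to 10, 32 with 11 to 30 and 15 with more. At the median model a level of 1 FPKM corresponds to 12.9 reads in an average glucose library, and at the shortest to 2.33. The coefficient of variation (SD over mean) across glucose libraries had a median of 44.8%, and counting error alone would give a median of 42.0%. The limit of 1 FPKM caps these glucose values, so their spread is a description.

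The xylose side rests on far more reads. The models had 151 to 12233 reads over the 3 xylose libraries, with a median of 893.5. Together they took 0.00570%, 0.00611% and 0.00514% of the implied totals of glucose replicates 1, 2 and 3, and 0.403%, 0.332% and 0.272% of xylose replicates 1, 2 and 3. All 3 xylose shares lay above all 3 glucose shares, as the choice of models requires, and xylose replicate 3 gave the lowest of the xylose shares. The 10 models of highest xylose level held 49.0%, 49.99% and 44.9% of the reads of the 70 models in xylose replicates 1, 2 and 3.

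**Figure D2:**
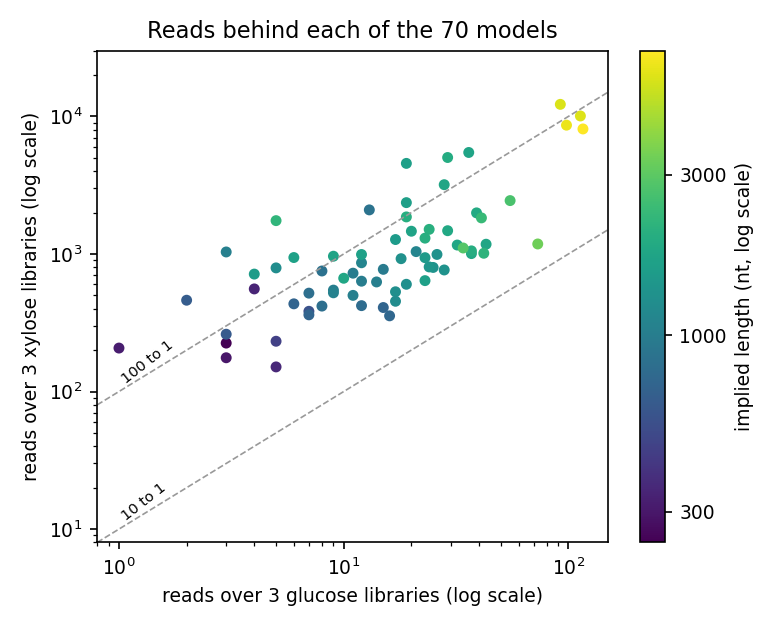
Reads of each of the 70 models summed over the 3 glucose libraries (horizontal, log scale) and over the 3 xylose libraries (vertical, log scale), coloured by implied length. Glucose sums run from 1 to 116 and xylose sums from 151 to 12233, and dashed lines mark 10 and 100 xylose reads per glucose read.

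The mean xylose level ran from 10.6 to 94.8 FPKM with a median of 19.2. It was under 20 FPKM in 38 models, from 20 to under 30 in 20, from 30 to under 50 in 5 and 50 or more in 7. The ratio of the xylose mean to the glucose mean had a median of 48.8 and ran from 13.9 to 305, with 14 models at 100 or more and 16 under 30. Fitted log2 fold changes, on the log2(FPKM + 1) scale, ran from 2.72 to 5.80 with a median of 3.89, against a median of 1.10 over all tested models. The pseudocount of 1 is larger than every glucose level here, so these fitted values understate the ratios. With the median of ratios the median of the 70 was 3.13, against 0.10 over all tested models, so the excess over the table's median was 2.79 and 3.03 under these scalings. Among all 9129 models the median percentile of the 70 was 20.4 by glucose mean and 62.3 by xylose mean. The limits force such a move, since they hold the glucose levels low and the xylose levels high. Among the 70 the highest glucose percentile was 27.7 and the lowest xylose percentile 48.0. The ranks therefore add no support to the fold changes.

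**Figure D3:**
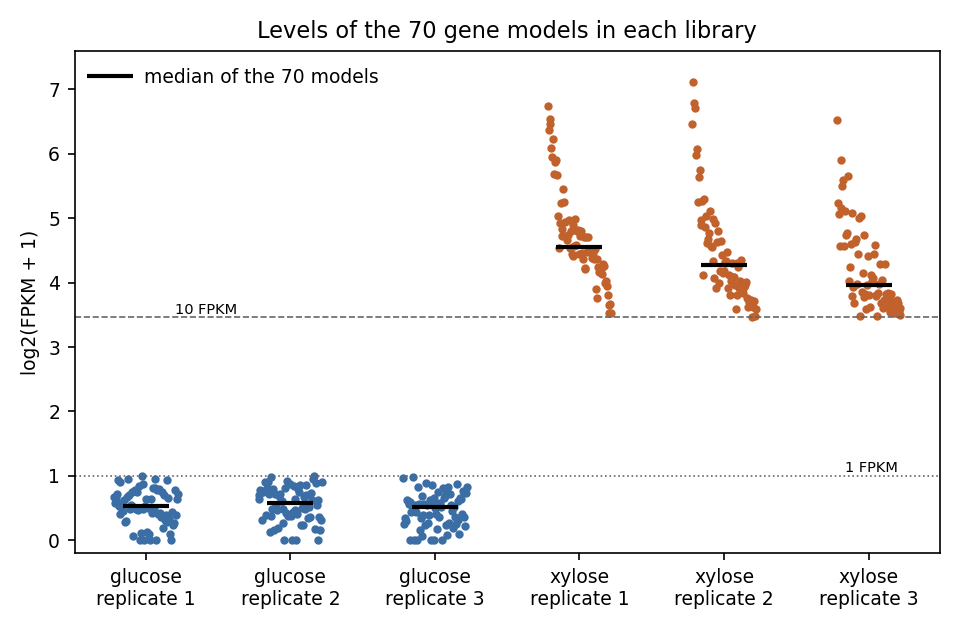
Level of the 70 models in each of the 6 libraries on the log2(FPKM + 1) scale, with black bars at the median of the 70 and lines at 1 and 10 FPKM. Points within a library are ordered by mean xylose level, and the median falls from 22.5 FPKM in xylose replicate 1 to 18.3 in replicate 2 and 14.7 in replicate 3.

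The model with the highest xylose level was also among the steadier ones. estExt_GeneWisePlus.C_10320, on scaffold 1 with an implied length of 1720 nt, had 0.589, 0.633 and 0.949 FPKM in glucose replicates 1, 2 and 3 and 106, 87.0 and 90.8 FPKM in xylose replicates 1, 2 and 3. The 3 xylose values lay close together, and the ratio of means was 131. From 36 glucose and 5466 xylose reads, the ratio of reads per implied total was 130 with an exact 95% interval of 93.8 to 185.8, which, like the other read intervals given here, covers counting error only.

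The next 3 models by xylose level shared a low value in xylose replicate 3. The model e_gw1.8.604.1, on scaffold 8 with 1590 nt, had 0.495, 0.560 and 0.192 FPKM in the glucose replicates and 81.7, 137 and 36.6 FPKM in the xylose replicates. estExt_GeneWisePlus.C_190005, on scaffold 19 with 1930 nt, had 0.583, 0.718 and 0.264 FPKM on glucose and 91.8, 109 and 32.4 FPKM on xylose. estExt_GeneWisePlus.C_90442, on scaffold 9 with 876 nt, had 0.642, 0.678 and 0.233 FPKM on glucose and 87.5, 104 and 22.6 FPKM on xylose. In all 3 models replicate 2 was the highest and replicate 3 the lowest library of each sugar, but the glucose values stand on only 13 to 29 reads a model. Their ratios of means were 205, 149 and 138, and their coefficients of variation on xylose 59.1%, 51.8% and 60.2%.

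The remaining 4 of the 8 models with the highest xylose level were more varied in length. estExt_fgenesh1_pm.C_180017, on scaffold 18 with 5792 nt, had 0.913, 0.239 and 0.546 FPKM on glucose and 67.4, 62.3 and 59.0 FPKM on xylose. It had the most xylose reads of the 70, 12233, against 92 on glucose, a read ratio of 114 (exact 95% interval 92.8 to 141.3). estExt_fgenesh5_pg.C_20308, on scaffold 2 with 1757 nt, had 0.448, 0.676 and 0.523 FPKM on glucose and 60.8, 66.6 and 34.9 FPKM on xylose, where replicate 3 was again the lowest. estExt_Genewise1.C_110118, on scaffold 11 with 5835 nt, had 0.868, 0.696 and 0.472 FPKM on glucose and 73.8, 37.3 and 44.2 FPKM on xylose, with replicate 1 the highest. At the other end of length, e_gw1.17.221.1, on scaffold 17 with 339 nt, had 0.332, 0.876 and 0 FPKM on glucose and 50.5, 48.8 and 47.4 FPKM on xylose. Its ratio of means of 121 stands on 4 glucose reads, and the read ratio of 119 has an exact 95% interval of 46.3 to 439.2.

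Very long models stood out among the 70 by their reads. An implied length over 5000 nt was found for 4 of the 70 (5.71%), against 1.44% of the 8406 models outside the 3 scaffolds with an implied length, a feature looked at after the values were seen. estExt_fgenesh1_pm.C_180017 and estExt_Genewise1.C_110118 are among them. estExt_GeneWisePlus.C_110120, on scaffold 11 with 6306 nt, had 0.4996, 0.753 and 0.356 FPKM on glucose and 59.1, 30.5 and 33.7 FPKM on xylose. estExt_GeneWisePlus.C_220208, on scaffold 22 with 6995 nt, had 0.370, 0.877 and 0.452 FPKM on glucose and 49.7, 28.8 and 25.8 FPKM on xylose. In the 3 of these models outside scaffold 18, xylose replicate 1 was the highest library, both as deposited and with the median of ratios. Together the 4 models held 34.7% of all xylose reads of the 70. At an equal FPKM a longer model has more reads, so this share is not a share of level. The whole set was not long: its median length was 1345.5 nt, beside 1302 nt over all models outside the 3 scaffolds, and it ran from 243 to 6995 nt.

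In 2 pairs, names of the series estExt_Genewise1 and estExt_GeneWisePlus lay on the same scaffold with numbers 2 apart. One pair is estExt_Genewise1.C_110118 and estExt_GeneWisePlus.C_110120 on scaffold 11, whose xylose values had the same order of libraries. The other is estExt_Genewise1.C_80398 and estExt_GeneWisePlus.C_80400 on scaffold 8, where the latter had 0.316, 0.111 and 0.172 FPKM on glucose and 10.5, 12.1 and 10.7 FPKM on xylose. Whether the models of a pair overlap or are near-identical copies that share reads is not given by the table, so their levels are uncertain as separate measurements.

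The 2 largest ratios of means stood on 5 and 3 glucose reads. estExt_Genewise1.C_80398, on scaffold 8 with 2187 nt, had 0.0514, 0.136 and 0.0466 FPKM on glucose and 24.4, 22.4 and 24.5 FPKM on xylose. Its ratio of means, 305, was the highest of the 70, and from 5 glucose and 1747 xylose reads the read ratio was 299 (exact 95% interval 128 to 922.6). fgenesh1_pm.C_scaffold_15000023, on scaffold 15 with 1038 nt, had 0.217, 0.0954 and 0 FPKM on glucose and 22.3, 16.4 and 49.6 FPKM on xylose. With 3 glucose reads its read ratio was 295 (exact 95% interval 100.7 to 1433). The lower end of these intervals is below the ratio of several models with more reads, so the order of the largest ratios is not resolved at this depth.

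Only 2 models were listed at 0 in 2 of the glucose libraries, and both are short. The model e_gw1.17.419.1, with 645 nt, had 2 reads in glucose replicate 3 and none in the other two, and 20.2, 26.8 and 16.7 FPKM on xylose. fgenesh5_pg.C_scaffold_10000395, with 318 nt, had 1 read in glucose replicate 2 and none in the other two, and 27.2, 16.8 and 14.6 FPKM on xylose. Their read ratios were 197 (exact 95% interval 54.3 to 1635) and 177 (31.5 to 7034), which bound the ratio from below far better than from above. Of the 70 models, 6 were shorter than 500 nt.

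The smallest ratio was found beside the lowest xylose level. kg2.C_scaffold_1000111, on scaffold 1 with 3315 nt, had 0.645, 0.866 and 0.769 FPKM on glucose and 10.5, 11 and 10.3 FPKM on xylose, a ratio of means of 13.9. Its 73 glucose and 1182 xylose reads gave a read ratio of 13.9 (exact 95% interval 10.9 to 17.8). Its fitted log2 fold change of 2.72 was larger than that of 89.7% of tested models. A high rank follows from the limits, which hold glucose levels low and xylose levels high. The rank therefore adds no support to the fold change.

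The 70 models differed widely in how much they varied between xylose libraries. The coefficient of variation over the 3 xylose libraries had a median of 26.5% and ran from 2.74% to 60.2%, while counting error would give a median of 5.80%. It was more than 3 times the counting value in 44 models and below it in 5. Libraries of a sugar differed beyond counting error over the whole table too. In 8 models the 3 xylose values as deposited lay within a factor of 1.2 of each other. Among the 4096 other models with at least 10 FPKM in every xylose library, the median coefficient of variation was 17.4%. With the median of ratios the medians were 19.2% for the 70 and 18.3% for the others, so the gap seen in FPKM as deposited narrowed with the scaling. No test was run on this difference. The floor of 10 FPKM also bounds the xylose values, and it lies nearer to the 70 than to the others. In xylose replicate 3 as deposited the median level was 14.7 FPKM in the 70 and 35.1 in the others.

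With FPKM as deposited, the 4 steadiest models had mean xylose levels of 10.6 to 48.9 FPKM. estExt_Genewise1.C_12115, on scaffold 1 with 2839 nt, had 11.5, 11.3 and 11.9 FPKM on xylose and 0.713, 0.279 and 0.287 FPKM on glucose, and its xylose coefficient of variation of 2.74% was the lowest. It was 3.21% in e_gw1.17.221.1, 3.46% in kg2.C_scaffold_1000111 and 4.88% in estExt_Genewise1.C_80398. At the other end stood estExt_GeneWisePlus.C_90442 (60.2%), fgenesh1_pm.C_scaffold_15000023 (60.1%), e_gw1.8.604.1 (59.1%) and fgenesh1_pm.C_scaffold_3000014 (56.3%). The last of these, on scaffold 3 with 846 nt, had 0.399, 0.117 and 0.482 FPKM on glucose and 42.8, 24.6 and 12.9 FPKM on xylose. Which models were steadiest depended on the scaling. With the median of ratios, xylose replicates 1, 2 and 3 stood at 6.25, 7.53 and 9.32 in estExt_Genewise1.C_12115. They stood at 8.25, 7.76 and 8.28 in estExt_fgenesh5_pg.C_10342, which was not among the 4 steadiest as deposited.

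The order of the xylose libraries was not the same in all models. The limits do not fix this order, but the floor of 10 FPKM bounds how far the lowest library can fall. Replicate 1 was the highest library in 44 of the 70 models (62.9%), replicate 2 in 16 (22.9%) and replicate 3 in 10 (14.3%). Among the 4096 other models with at least 10 FPKM in every xylose library these shares were 61.0%, 17.2% and 21.8%. Replicate 3 was the lowest library in 44 of the 70 (62.9%), beside 55.7% of the others. The level in replicate 3 was under 0.5 times that in replicate 1 in 14 models (20%) and above that in replicate 1 in 12 (17.1%). In the others these shares were 13.4% and 28.7%. The median quotient was 0.664 in the 70, beside 0.811 in the others.

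The order depended on the scaling. The median of ratios divides xylose replicates 1, 2 and 3 by 1.846, 1.498 and 1.277. After it the median quotient of replicate 3 over replicate 1 was 0.960 in the 70 and 1.17 in the others. Replicate 1 was the highest library in 21 of the 70 (30%), replicate 2 in 21 (30%) and replicate 3 in 28 (40%). In the others these shares were 25.1%, 21.0% and 53.9%. The level in replicate 3 was under 0.5 times that in replicate 1 in 2.86% of the 70 and 2.56% of the others. The models with the highest and the lowest quotient of replicate 3 over replicate 1 kept their direction. fgenesh1_pm.C_scaffold_15000023 had 2.22 times as much FPKM in replicate 3 as in replicate 1, and estExt_GeneWisePlus.C_90442 had 0.259 times as much. The scaling multiplies this quotient by less than 1.5, so neither crosses 1. The quotient was also above 1.5 in estExt_GeneWisePlus.C_160413, with 20.7, 14.2 and 31.9 FPKM in xylose replicates 1, 2 and 3.

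**Figure D4:**
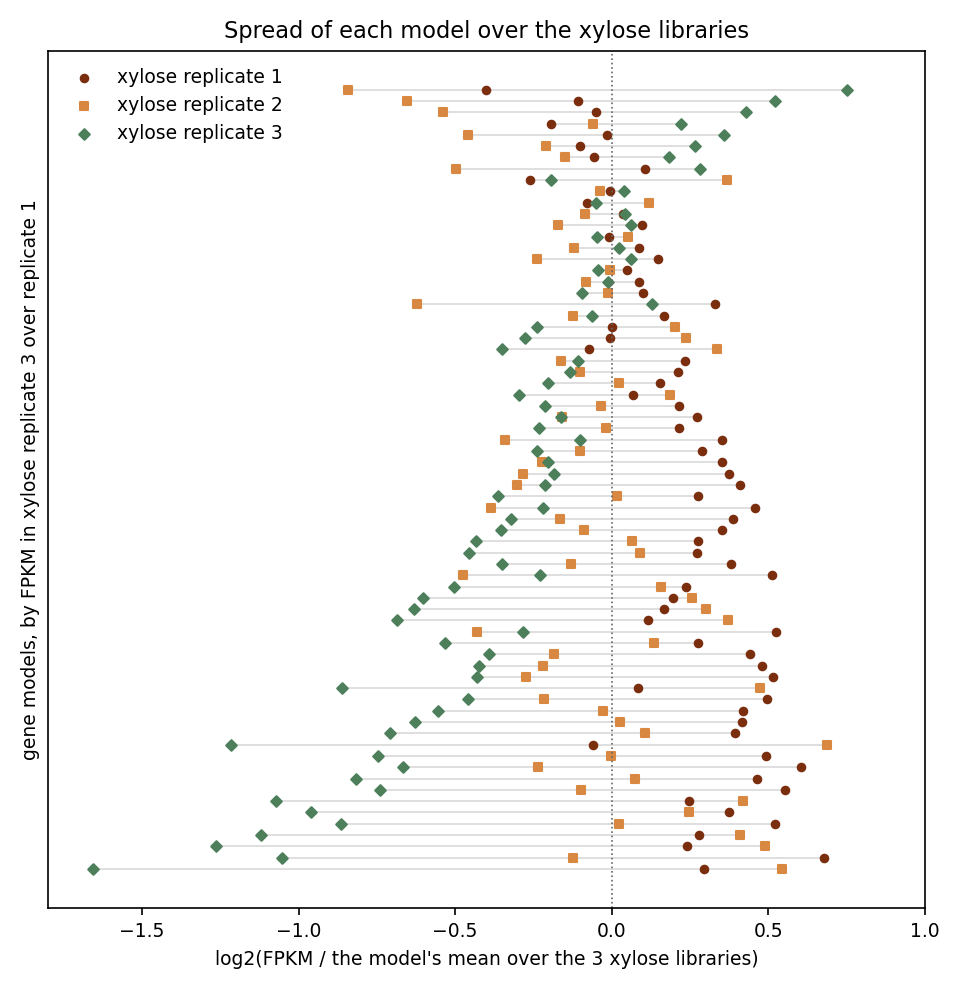
Spread of each of the 70 models over the 3 xylose libraries, as log2 of FPKM over the model's own mean, with models ordered by replicate 3 over replicate 1. Replicate 3 is the lowest library in 44 models and lies above replicate 1 in the 12 at the top.

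The 70 models came from 24 of the 69 scaffolds considered. Scaffold 8 held 9 of them, scaffolds 1 and 11 held 7 each and scaffold 17 held 5. Set against the models each scaffold holds, this was 2.22 per 100 models on scaffold 8, 2.38 on scaffold 11, 2.35 on scaffold 17 and 0.683 on scaffold 1, beside 0.821 per 100 over all scaffolds considered. Scaffold 25, with 3 of 127 models, stood at 2.36 per 100. Rates were higher on 3 small scaffolds, with 2 of 44 models on scaffold 35 (4.55 per 100), 1 of 27 on scaffold 39 (3.70) and 1 of 12 on scaffold 49 (8.33). No test was run on these shares. On scaffold 8 the mean xylose levels ran from 11.1 FPKM in estExt_GeneWisePlus.C_80400 to 85.1 FPKM in e_gw1.8.604.1, so the models of a scaffold did not share a level. They did not share an order of libraries either, and replicate 1 was the highest in 5 of the 9 as deposited and in 1 with the median of ratios. estExt_fgenesh1_pm.C_80001 had 0.464, 0.641 and 0.120 FPKM on glucose and 37.1, 26.2 and 14.2 FPKM on xylose, with replicate 3 far below the others. estExt_fgenesh5_pg.C_80176 had 0.676, 0.378 and 0.613 FPKM on glucose and 25.5, 22.7 and 23.8 FPKM on xylose, where the libraries were close. The model e_gw1.8.131.1 had 0.342, 0 and 0.434 FPKM on glucose and 17.7, 13.03 and 23.00 FPKM on xylose, with replicate 3 the highest.

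On scaffold 17, xylose replicate 3 was the lowest library in all 5 models with FPKM as deposited, but in 2 of them with the median of ratios, where replicate 1 was the lowest in 3. The models e_gw1.17.221.1 and e_gw1.17.419.1 of this scaffold are given above. The model e_gw1.17.354.1 had 0.676, 0.520 and 0.842 FPKM on glucose and 26.98, 29.5 and 10.2 FPKM on xylose. estExt_fgenesh5_pg.C_170087 had 0.799, 0.201 and 0.207 FPKM on glucose and 28.9, 23.7 and 13.5 FPKM on xylose. estExt_fgenesh5_pg.C_170159 had 0.316, 0.278 and 0.287 FPKM on glucose and 16.9, 14.3 and 12.6 FPKM on xylose, and was the steadiest of these 3. On scaffold 11, replicate 1 was the highest library in 6 of 7 models as deposited and in 4 with the median of ratios. Replicate 3 was the highest under both in fgenesh5_pg.C_scaffold_11000116, with 0.0860, 0.757 and 0.546 FPKM on glucose and 22.6, 14.9 and 25.6 FPKM on xylose.

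By name, 34 of the 70 (48.6%) belonged to the prediction series whose names begin with estExt, beside 36.4% of all models outside the 3 scaffolds and 18.9% of the 2139 other models under 1 FPKM on glucose. The series fgenesh5_pg gave 9 of the 70 (12.9%), beside 24.4% of all models, and the series e_gw1 gave 20 (28.6%), beside 27.9%. The series gw1 gave none of the 70, out of 425 models.

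No 2 of the 70 stood next to each other by number. The closest pair of one series and scaffold, fgenesh1_pm.C_scaffold_15000023 and fgenesh1_pm.C_scaffold_15000046, was 23 numbers apart. Numbers were taken to follow position in 5 series, fgenesh5_pg and the estExt ones, which hold 43 of the 70. In these, 7 of the models had a listed model one number away, none of which met both limits. Of these 7 neighbours, 5 also had a mean under 1 FPKM on glucose (71.4%), beside 27.5% of all 5186 models of these series outside the 3 scaffolds. Their median levels were 0.443 FPKM on glucose and 4.67 on xylose, beside 4.27 and 14.1 FPKM over those 5186 models. At up to 3 numbers away, 21 of 35 neighbours (60%) had a glucose mean under 1 FPKM, with medians of 0.543 FPKM on glucose and 5.32 on xylose. Neighbours were thus mostly low on glucose too, over few models and with no test. Their calls are not given, because a model that is low on glucose enters the test only through its xylose level. Of the 8 models with the highest xylose level, those in these series had no listed neighbour one number away. The models e_gw1.8.604.1 and e_gw1.17.221.1 lie outside these series and were not searched.

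The neighbour nearest to the set at one number away was fgenesh5_pg.C_scaffold_11000117, beside fgenesh5_pg.C_scaffold_11000116. It had 0.139, 0.204 and 0.0842 FPKM on glucose and 9.80, 9.63 and 10.99 FPKM on xylose, so 2 of its xylose values fell short of 10 FPKM. By contrast, estExt_fgenesh1_pm.C_180019, near estExt_fgenesh1_pm.C_180017, was among the abundant models. It had 7317, 6058 and 8054 FPKM on glucose and 4423, 5275 and 5364 FPKM on xylose.

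The size of the set depended on its limits, on the scaling and on xylose replicate 3. With limits of 2 and 5 FPKM it would hold 596 models, and with limits of 0.5 and 20 FPKM it would hold 1, estExt_Genewise1.C_80398. After scaling by the median of ratios, 14 models met the limits of 1 and 10, all of them among the 70. That scaling raises glucose values above 0 and lowers every xylose value, so no other model could enter. The 14 included e_gw1.8.604.1, estExt_GeneWisePlus.C_90442, estExt_fgenesh5_pg.C_20308 and fgenesh1_pm.C_scaffold_15000023. estExt_GeneWisePlus.C_10320, the model with the highest xylose level, was not among them, since its glucose level rises past 1 FPKM under that scaling. Rescaled so that each library sums to the same total (TPM), 84 models met the limits, 60 of them among the 70. Without xylose replicate 3, 136 models met them, and all 70 were among these, since leaving out a library can only loosen the limits.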

How the data were processed

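The authors deposited 1 table of FPKM for 9129 gene models in 6 libraries, 3 per sugar. The submitters' processing notes name Bowtie2 2.2.3, TopHat2 2.0.12 and HTSeq 0.6.1 and give them no role. Genome build, annotation and strand use: not given in the sources used here. Reads of overlapping or near-identical models therefore cannot be told apart.

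Whole reads, lengths and library totals were solved from the spacing of low values, within 1e-05 reads plus a relative 3e-09, for 9008 of the 9010 models above 0. Solved reads summed to 99.1% to 99.3% of the totals. An implied length may be a fraction of the true one where a model's read numbers have a common factor. Read intervals are exact binomial and do not treat amplification.

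log2(FPKM + 1) of the 7766 models averaging 1 FPKM or more was fitted by sugar with limma 3.58.1 in R 4.3.3 (eBayes with a trend, two-sided, Benjamini-Hochberg over all 7766). Python 3.11.15 and SciPy 1.17.1 did the rest, and the scripts were tested on simulated data. The models and lists were chosen with earlier results of these data known. Named models were the 8 highest on xylose, the 4 most and 4 least variable there, those at 0 in every glucose library (0 models), those close by number (0 pairs within 3), those nearest the limits and neighbours of the 8. Others were chosen after their values were seen. Libraries of a sugar differed beyond counting error (mean chi-square per model at least 12.0 for each pair), so none was taken as a duplicate.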

Additional observations from a re-analysis of the deposited data

How the results depend on the processing

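Scaling, limits and pseudocount moved these values, and the cause was not tested beyond what their construction shows. With the median of ratios, calls over all models turned from 5035 higher and 1095 lower to 2980 and 2721, models meeting the limits from 70 to 14, models highest in xylose replicate 1 from 44 to 21, and the median log2 fold change of the 70 from 3.89 to 3.13. That median was 5.30 with a pseudocount of 0.1, 2.12 with a pseudocount of 5 and 5.48 with voom on recovered reads, by their smaller or larger offset. Limits of 0.5 and 20 FPKM left 1 model, and limits of 2 and 5 gave 596, with a median xylose level of 11.6 in place of 19.2 FPKM. When 1 library was left out, the models meeting the limits numbered 73 to 136, the highest without xylose replicate 3. They always held the 70, since leaving out a library can only loosen the limits. Over the libraries left out, higher calls ran from 4685 to 5247 and lower calls from 959 to 1172. The median log2 fold change of the 70 ran from 3.71 to 3.96. For the models meeting the limits, which changed with the library left out, the median xylose level was 17.04 to 19.8 FPKM. The 70 passed the test as higher under all 12 other settings of the test, which follows from the choice of models and carries no weight. Over all tested models, 64.8% were called higher with FPKM as deposited and 38.4% with the median of ratios. With the replicate number as a block, 5034 models were higher and 1067 lower. No label ties equal numbers to a shared culture or day. Between same-numbered libraries the deviations from the group means had correlations of 0.001, -0.072 and 0.073. Such values cannot exclude a shared culture or day, so whether the samples are paired is not known. Depth limits the glucose side, where the median model has 17 reads.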
